A study of Mus musculus with 24 samples.

Results

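The miR-297, miR-466, miR-467 and miR-669 family is a set of rodent microRNAs known for mature sequences rich in CA or UG dinucleotide repeats. Its members were taken by name from the array design: every mouse miRNA called miR-297, miR-466, miR-467 or miR-669, with any letter or arm, which gave 61 of the 1881 miRNAs on the array (3 of miR-297, 23 of miR-466, 12 of miR-467 and 23 of miR-669). The data were 24 one-color miRNA arrays of 8 mouse tissues, taken from the eye (cornea, iris, lens, retina, RPE/choroid, labelled choroid, and sclera) and from the brain (SCN and LGN). All samples were labelled C57BL/6J, and the methods give male mice. Each tissue was measured once in each of 3 groups: normal mice kept without a lens (labelled Control), a group labelled 0D, whose lens has no power by its label, and the group labelled Lens-induced, in which a −30 D lens was worn on the right eye for 3 weeks from 3 weeks of age. The methods give 3 mice each for the normal and −30 D groups and pool the RNA of each ocular tissue, so that an array is 1 pool, and they do not describe the 0D mice or the brain samples further. As each of the 3 slides carried all 8 tissues of 1 group, the slide and the lens cannot be told apart.

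A miRNA is a short RNA that guides a silencing complex to messages by pairing, mostly through the seed, bases 2 to 8 of its 5′ end. Most genes of this family lie close together within an intron of Sfmbt2, a Polycomb-group gene known as an imprinted locus active in the placenta. Because the members resemble each other and other simple-repeat sequences, a short hybridization probe can capture more than one of them.

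The name of the Sfmbt2 cluster fits most members, but 3 of the 6 detected on every array lie elsewhere. By the RefSeq gene table (GRCm38.p6), 49 of the 61 members have all their loci within Sfmbt2, 8 lie outside it, 3 have loci in both places and 1 was not matched. Of the 49 inside, 9 were detected on at least 1 array, whereas 6 of the 8 outside were: miR-466i-3p, miR-466i-5p, miR-466q, miR-467f, miR-467g and miR-669n. The family is therefore described by its names, and not as 1 transcript. Probes of 11 members were also listed by the array design under another mature name, such as miR-669c-5p for the probes of miR-669n and miR-669m-5p for those of miR-466m-5p.

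RefSeq sequences (GRCm38.p6) could be matched to 7 members, all of them from loci outside Sfmbt2. They are shown because they display the repeats of the family, and 4 of them were detected on at least 12 arrays. Capitals mark the seed.

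miR-466i-3p: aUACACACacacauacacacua
miR-466q: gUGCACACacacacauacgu
miR-467f: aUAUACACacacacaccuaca
miR-467g: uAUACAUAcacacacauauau
miR-466k: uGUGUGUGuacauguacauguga
miR-466j: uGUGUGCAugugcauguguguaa
miR-669n: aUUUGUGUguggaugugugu

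These 7 mature sequences lie at chr13:17747552-17747573 (+), chr3:28419988-28420007 (+), chr11:69635419-69635439 (−), chr5:34732872-34732892 (−), chr3:85467396-85467418 (+), chr10:60960802-60960824 (+) and chr3:115979905-115979924 (+), in the order shown. Their 7 seeds all differ. The first 4 are CA-repeat miRNAs, with alternating runs of 11, 12, 12 and 9 bases. Although their seeds differ, they share long stretches, which overlap the seeds: miR-466i-3p has an unbroken stretch of 14 bases in common with miR-466q and 1 of 13 bases with miR-467f. The last 3 are UG-repeat miRNAs, with runs of 9, 7 and 8 bases. A run of 4 CA or UG dinucleotides (ACACACAC, CACACACA, UGUGUGUG or GUGUGUGU, searched in the mature strand, where the motifs of a pair overlap) was held by 6 of these 7 members and by 7 of 1601 other miRNAs with a sequence, or 0.437%. All 7 of those others carry UG, and none carries CA. Among the UG carriers outside the family, 3 were detected on at least 12 arrays and are shown for comparison.

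miR-574-5p: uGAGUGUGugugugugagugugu
miR-3082-5p: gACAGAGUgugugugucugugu
miR-1187: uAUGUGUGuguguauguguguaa

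Few members gave a signal. A miRNA counted as detected where at least 1 of its probes (1 to 4 per miRNA) lay above 3 of its scanner errors. By this limit 16 of the 61 members (26.2%) were detected on at least 1 array, 9 on at least 12 arrays and 6 on all 24, and 45 were never detected. Among the 1820 other miRNAs, 20.8% were detected on any array, 10.3% on at least 12 and 4.01% on all 24. No miR-297 was detected on any array. By subfamily, 7 of 23 miR-466, 5 of 12 miR-467 and 4 of 23 miR-669 members were detected at all. The 3p arm gave 8 of 26, the 5p arm 3 of 25, and members named without an arm 5 of 10. Each array detected 6 to 13 members, of 129 to 249 miRNAs in all.

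**Figure D1:**
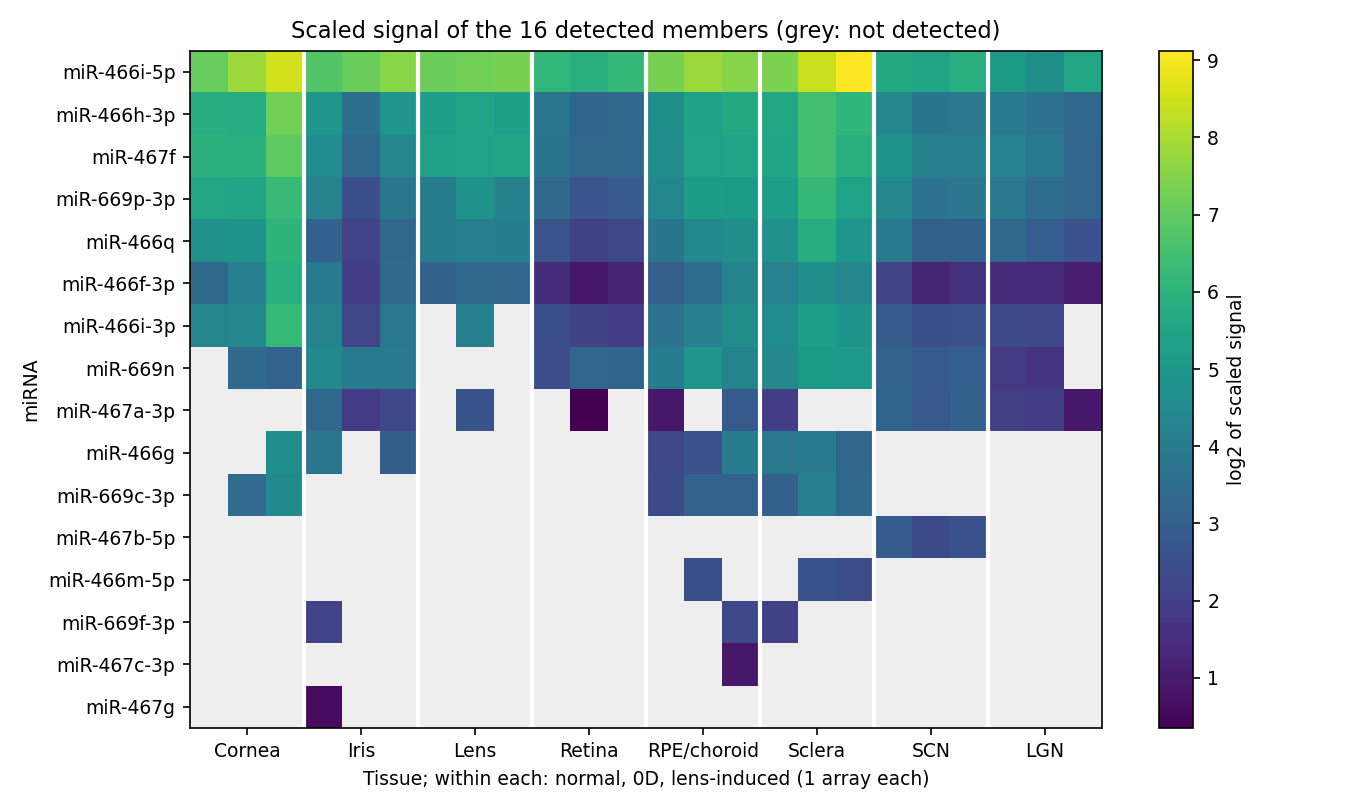
Scaled signal (log2, color) of the 16 members detected on any array, with 1 column per array: within each tissue the normal, 0D and lens-induced array from left to right; grey means not detected. The upper 6 rows are filled on all 24 arrays, miR-467b-5p only in the SCN, and the sclera and lens-induced cornea hold the brightest cells.

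The dim members were detected in some tissues only, but the limit of detection differed between arrays, so that an undetected member may still be present. miR-467b-5p was detected on the 3 SCN arrays (scaled signal 7.48 in normal, 5.003 in 0D and 5.87 in lens-induced) and on no other array. Its limits of detection were 15.8 to 24.3 in cornea, 21.9 to 27.5 in lens, 7.64 to 9.21 in RPE/choroid and 7.05 to 11.2 in sclera, all of which overlap or lie above those signals. miR-466g and miR-669c-3p were detected in every RPE/choroid and sclera array and on no retina, lens, SCN or LGN array. In the lens their limits of 22.03 to 27.5 lay above every one of their RPE/choroid and sclera signals, of at most 17.5. miR-467a-3p, whose 10 loci all lie within Sfmbt2, was detected on all iris, SCN and LGN arrays, between 1.90 and 9.95, and on 1 or 2 arrays of lens, retina, RPE/choroid and sclera. The number of members seen on any array of a tissue ran from 8 in the lens and 9 in the retina and LGN to 13 in the sclera and 14 in the RPE/choroid. In share of the total detected signal, which needs no scaling between arrays, the family made up 1.003% to 2.21% in the sclera, 0.671% to 1.02% in the RPE/choroid, 0.537% to 0.711% in the iris and 0.278% to 0.864% in the cornea. It stayed at 0.110% to 0.144% in the lens, 0.142% to 0.173% in the retina, 0.153% to 0.191% in the SCN and 0.122% to 0.174% in the LGN. A share also depends on the total, which as scaled was highest in the lens. The family's scaled sum in lens (262 to 321) lay near that in iris (200 to 317) and above that in retina (105 to 130).

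A set of 17 markers of the labelled tissues was checked, not all of which are given here. The retina arrays held miR-183-5p at 8510 to 9710, the cornea arrays miR-205-5p at 895 to 1108, the sclera arrays miR-199a-3p at 832 to 929, the iris arrays miR-211-5p at 772 to 906, and the SCN and LGN arrays miR-124-3p, a neuronal miRNA, at 1396 to 2111. miR-211-5p is a pigment-cell marker, but miR-204-5p, another, was lower in iris (288 to 304) than in every other ocular tissue. It measured 758 to 881 in RPE/choroid and 1198 to 1349 in lens. Other tissues held these markers too. miR-184-3p, a corneal marker like miR-205-5p, was highest in cornea (29710 to 36854) but also high in lens (11130 to 16390), and it measured 505 to 550 in iris. miR-124-3p was highest in the retina (10202 to 11409) and was also found in RPE/choroid (570.2 to 985), sclera (321 to 587) and lens (105 to 390). Retinal miR-183-5p was also present in RPE/choroid (520.0 to 900.0), sclera (253 to 658), lens (76.9 to 268) and cornea (76.1 to 88.1). The muscle markers miR-133a-3p (267 to 315), miR-1a-3p (65.3 to 77.7) and miR-206-3p (14.8 to 18.1) were highest in the lens arrays. The part of such other cells in the members' tissue differences was not tested. miR-144-3p, a blood marker, was not detected on any array, and miR-451a, another, was not detected in lens. Within a tissue, fewer cells that make a miRNA and less of it per cell cannot be told apart.

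miR-466i-5p was the brightest member in every tissue and on every array, with a median scaled signal of 140.4 and between 28.2% and 70.1% of the family's summed signal. Scaled signals are in arbitrary units, set so that the 75th percentile of the 79 miRNAs detected on all arrays is equal. In the order normal, 0D and lens-induced, its signal was 135, 232 and 371 in cornea, 110, 140 and 188 in iris, and 141, 151 and 159 in lens. It was 72.2, 58.7 and 73.2 in retina, 160, 225 and 184 in RPE/choroid, and 166, 343 and 557 in sclera. In the brain it was 49.6, 44.0 and 57.8 in SCN and 35.4, 26.1 and 47.7 in LGN. As scaled, the retina, SCN and LGN arrays all lay below every array of the other 5 tissues. Without scaling this did not hold, as the retina arrays (107 to 114) lay above the lens arrays (50.6 to 62.9). The lens-induced array was the highest of its tissue in 7 of the 8 tissues as scaled, but in 4 of 8 without scaling.

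The next brightest members were miR-466h-3p and miR-467f. miR-466h-3p, whose locus lies within Sfmbt2, measured 57.0, 55.5 and 153 in cornea, 31.4, 11.96 and 30.8 in iris, 37.5, 44.9 and 39.7 in lens and 14.0, 8.99 and 9.98 in retina. It measured 26.3, 41.0 and 50.3 in RPE/choroid, 49.1, 88.0 and 68.2 in sclera, 21.8, 13.7 and 14.2 in SCN and 15.4, 12.9 and 9.98 in LGN. Its highest array was the lens-induced cornea and its lowest the 0D retina. miR-467f, a CA-repeat miRNA, ran from 9.25 on the lens-induced LGN array over a median of 27.5 to 122 on the lens-induced cornea array. miR-669p-3p ran from 5.69 (0D iris) over a median of 18.7 to 78.7, miR-466q from 4.27 (0D retina) over 14.1 to 66.7, and miR-466f-3p from 1.91 (0D retina) over 9.03 to 60.2, with the lens-induced cornea highest for all 3.

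**Figure D2:**
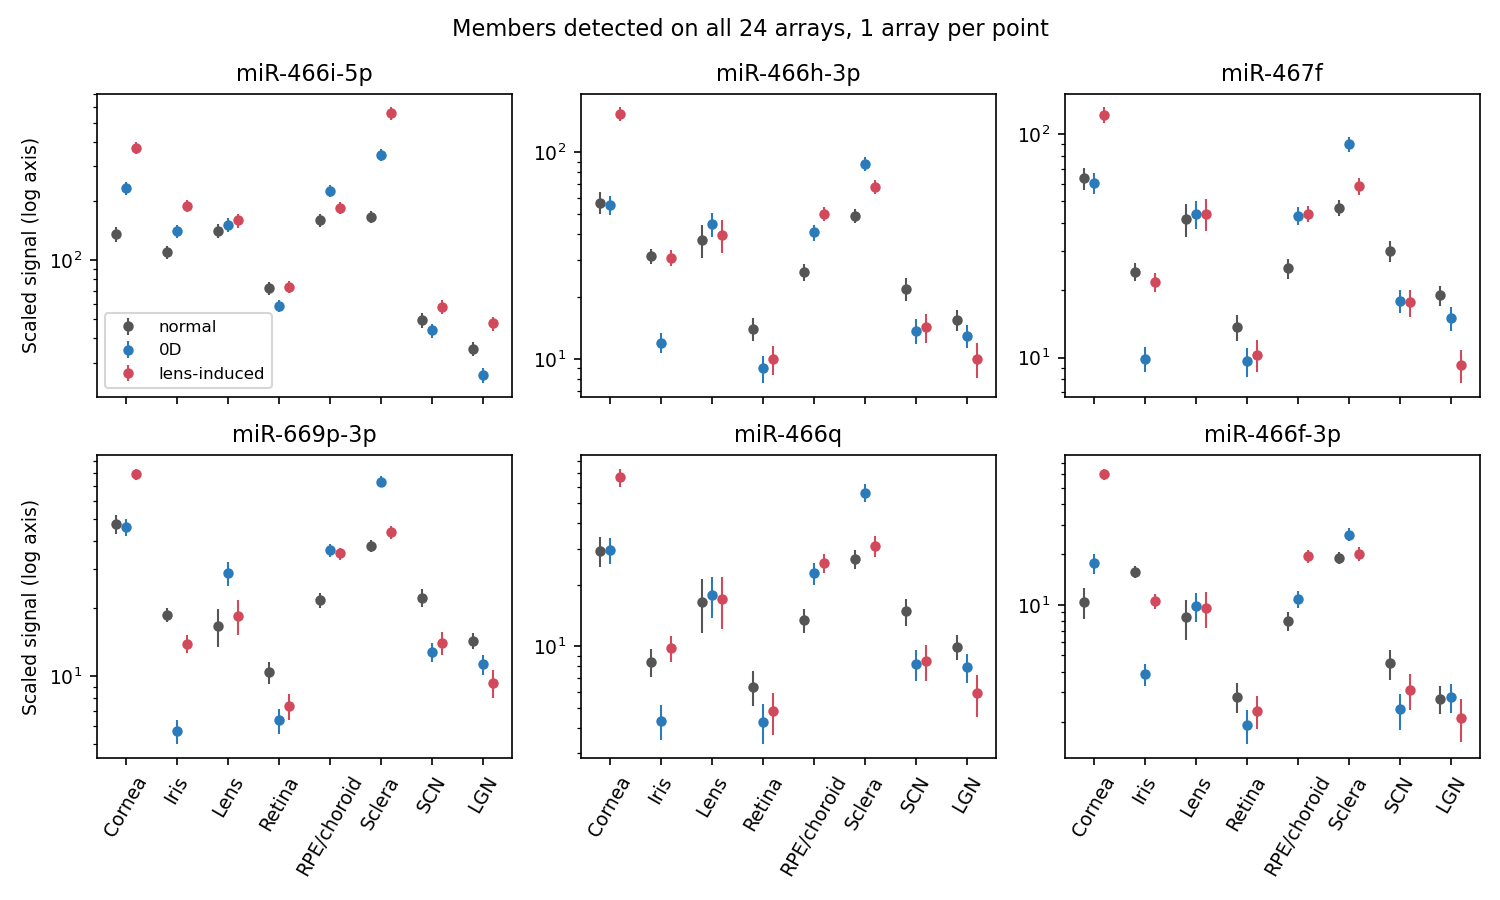
Scaled signal (log axis) of the 6 members detected on all 24 arrays, by tissue, with 1 array per point, colored by lens group, and bars for the scanner's probe error. miR-466i-5p is highest in the lens-induced sclera (557), whereas the other 5 peak in the lens-induced cornea, where miR-466h-3p reaches 153.

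The members fell into different patterns over the arrays by likeness, the Pearson correlation over the 24 arrays of log2 values, in which signals under 9.93 and undetected ones were set to that floor. Of the 9 members detected on at least 12 arrays, miR-467a-3p had 23 of its 24 values at the floor, so that no likeness could be read for it. Of the other 8 members, 6 had another member as the most alike of 196 miRNAs. The closest pair was miR-466h-3p and miR-467f (r = 0.98), followed by miR-466q and miR-669p-3p (0.96). High values were not confined to the family: miR-494-3p, outside it, was at 0.90 with miR-466h-3p and 0.89 with miR-467f. The member miR-466i-5p differed: its most alike miRNA was miR-574-5p (0.97) and the next miR-3082-5p (0.93), both UG-repeat miRNAs outside the family shown above. Its most alike member was miR-466h-3p (0.84). miR-669n, with 14 of 24 values at the floor, was most like miR-152-3p (0.95). These correlations are descriptions over arrays that share labelling, slides and scaling.

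**Figure D3:**
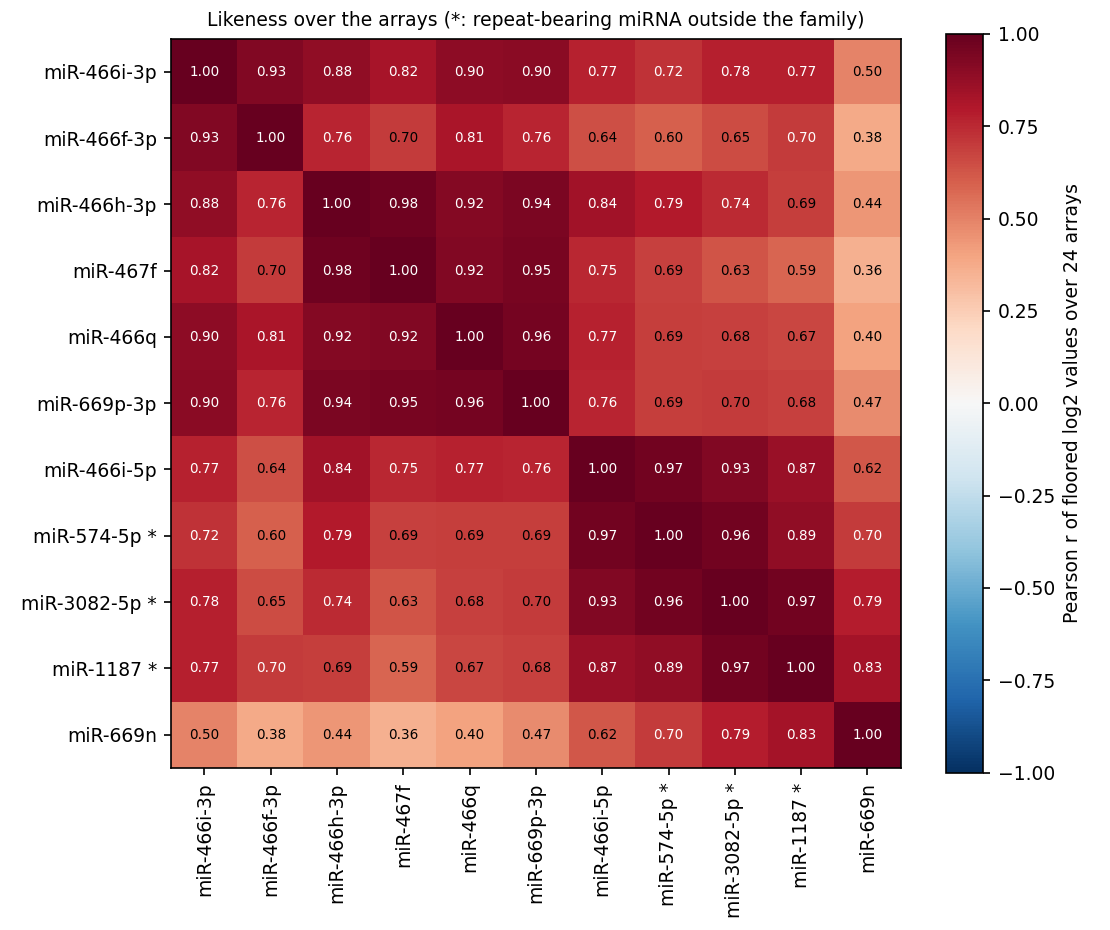
Pearson correlation over 24 arrays of log2 scaled signals, floored at 9.93, between 8 members and 3 repeat-bearing miRNAs outside the family (asterisks). The highest values lie among the 6 members from miR-466i-3p to miR-669p-3p, and among miR-466i-5p and the 3 UG-repeat miRNAs. These groups are not sharply divided: miR-466f-3p and miR-467f are at 0.70, whereas miR-466i-5p and miR-466h-3p are at 0.84.

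The split held after the tissue means were taken out. Among the 5 members detected on all arrays other than miR-466i-5p, the 10 pairwise correlations had a median of 0.96 (0.88 to 0.98). Within tissues the median was 0.92 (0.81 to 0.97), beside a median of 0.24 over all 3081 pairs of miRNAs detected on all arrays. Between these 5 and miR-466i-5p the values over all arrays were 0.71 to 0.87. There the within-tissue values were 0.22 to 0.41, whereas miR-466i-5p gave 0.90 with miR-574-5p and 0.82 with miR-3082-5p. Without scaling between arrays, the 3 medians over all arrays were 0.94 for the 5 members, 0.69 for their pairs with miR-466i-5p and 0.97 for miR-466i-5p with the 2 outside miRNAs. The signal ratio of miR-466h-3p to miR-467f stayed between 0.728 and 1.42 on all 24 arrays, with a standard deviation of 0.25 on the log2 scale, against 1.12 and 1.07 for the 2 miRNAs alone. The ratio of miR-466i-5p to miR-466h-3p ran from 2.02 to 11.7. Whether shared capture by the probes has a part in these likenesses was not tested, since the probe sequences were not used here.

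The tissue differences were tested with limma, each tissue against the mean of the other 7 with the lens group as a block, over the 197 miRNAs detected on at least 12 arrays. The 3 arrays of a tissue differ in lens group. The p-values measure the spread left after a lens effect common to the tissues, which includes lens changes particular to a tissue. Spread between animals of a group was not measured. Values under the common floor of 9.93 were set to it. Values held at the floor add no spread, so the standard errors and p-values of members with many of them can be too small. In the sclera 8 of the 9 members tested were higher (82.7% of all miRNAs were called in either direction), and none was lower. miR-466i-5p was higher there by 1.65 ± 0.22 (log2, SE, limma adjusted p = 3.4e-06) and miR-669n by 1.32 ± 0.14 (adjusted p = 3.0e-07). For miR-669n, 14 of 24 values were at the floor, including all those of lens, retina, SCN and LGN. Its calls could not be checked with undetected values left out, since no lens array detected it. In the cornea 7 were higher and 1 lower (79.2% called), led by miR-466h-3p at 1.68 ± 0.31 (adjusted p = 9.7e-05) and miR-467f at 1.65 ± 0.29 (adjusted p = 6.5e-05), with miR-669n called lower at −0.49 ± 0.14 (adjusted p = 0.0052). In the RPE/choroid 2 were higher (72.1% called), miR-466i-5p by 0.78 ± 0.22 (adjusted p = 0.0050) and miR-669n by 0.76 ± 0.14 (adjusted p = 0.00017). The share of members called was thus close to that of all miRNAs in cornea and sclera, and below it in RPE/choroid.

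The neural tissues were low. In the retina 7 members were lower and none higher (84.8% called), led by miR-467f at −1.55 ± 0.29 (limma adjusted p = 0.00012) and miR-466h-3p at −1.54 ± 0.31 (adjusted p = 0.00023). In the LGN 7 were lower (79.2% called), with miR-466i-5p at −1.97 ± 0.22 (adjusted p = 3.8e-07), and in the SCN 5 were lower (84.3% called), with miR-466i-5p at −1.39 ± 0.22 (adjusted p = 2.1e-05). The iris and lens were mixed: 1 higher and 3 lower in iris (76.1% called) and 1 higher and 1 called lower in lens (86.3% called). The one member higher in iris was miR-669n, at 0.45 ± 0.14 (adjusted p = 0.0092), while miR-467f was lower at −0.82 ± 0.29 (adjusted p = 0.016). The share of members called in retina and LGN was also near that of all miRNAs, and lower in SCN, iris and lens.

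**Figure D4:**
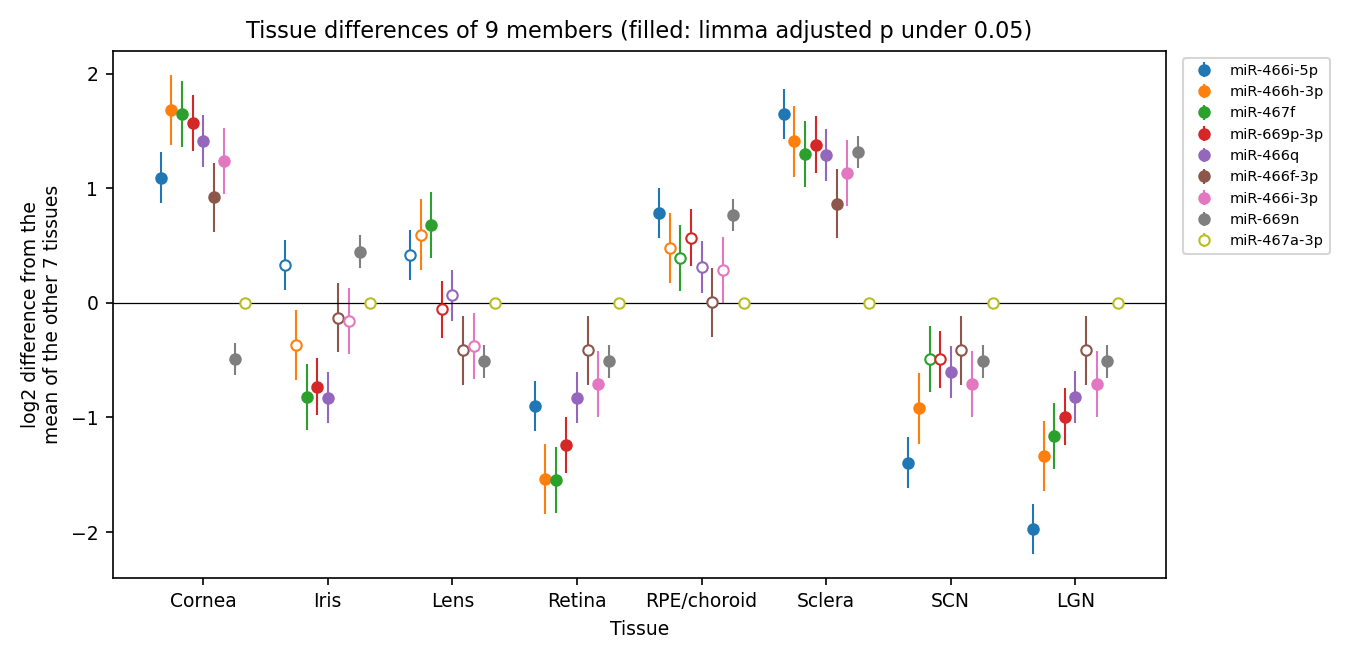
Log2 difference of each tissue from the mean of the other 7, for 9 members, with standard errors from limma; filled points have an adjusted p under 0.05. Points lie above 0 in the sclera for 8 members and below 0 in retina and LGN, and miR-467a-3p lies at 0 throughout because 23 of its 24 values are at the floor. The lens point of miR-669n rests on undetected arrays and does not show a lower level, and its cornea point includes 1 undetected array.

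Direction depended on scaling for 3 of these 43 calls. In the lens, miR-467f was higher by 0.68 ± 0.29 (limma adjusted p = 0.037) as scaled and stood at −0.95 without scaling, where the median of all miRNAs moved by −1.23. In the retina miR-669n was lower by −0.51 as scaled and at 0.05 without scaling, where that median moved by 0.80, and in the sclera miR-466f-3p was at 0.86 as scaled and at −0.04 under quantile normalization. Another 9 calls kept their sign but were no longer called without scaling, and 11 under quantile normalization. Without scaling these included miR-466i-5p in cornea (1.09 as scaled, 0.16 without) and in retina (−0.90 and −0.10). Of the 24 calls that were lower, 8 had all 3 arrays of the tissue at the floor with every limit of detection at or under it, so that their size depends on the floor. The call of miR-669n in lens does not show a lower level: its 3 lens arrays were undetected. Their limits of 22.7 to 28.0 lie above the floor and within or above the range of its iris signals of 15.3 to 23.2. The cornea call is uncertain, as the normal array was undetected with a limit of 24.6, also above the floor. On the 0D and lens-induced cornea arrays miR-669n was detected at 10.3 ± 3.4 and 8.60 ± 2.78 (signal and scanner error). These signals lay under those of iris, RPE/choroid (16.9 to 30.4) and sclera (22.5 to 35.2). They lay within or above those of retina, SCN and LGN. With the lens left out, a choice made after seeing the data, miR-669n was still higher in sclera (1.27 ± 0.15, limma adjusted p = 3.3e-06), RPE/choroid (0.71 ± 0.15, adjusted p = 0.00098) and iris (0.38 ± 0.15, adjusted p = 0.038). Its retina, SCN and LGN values were at the floor in that fit too. Without the lens-induced arrays 28 calls were made in place of 43, and without the 0D arrays 32.

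The question of the study was what a −30 D lens changes in each tissue. With 1 array per tissue and group there is no replicate check and no test within a tissue. The study's criteria were used: a ratio above 2 or below 0.5 where both arrays detect the miRNA, and above 5 or below 0.2 where only 1 does. An undetected miRNA was set to 0.1, a choice made here that lets nearly any miRNA detected on 1 array meet the criteria. Over the 8 tissues, 24 of 81 member ratios met them for lens-induced against normal, 15 higher and 9 lower, in 14 different members. Over all miRNAs, 306 of 1780 ratios met them. Both arrays detected the miRNA in 12 of the 24, with 9 higher and 3 lower. In 11 of the other 12 the detected signal lay under the undetected array's own limit of detection, so that no difference is shown. In 1 it lay above that limit, but by less than its own scanner error. Errors given with a log2 ratio come from the scanner's probe errors alone. The 0D and lens-induced groups are compared with the same normal arrays.

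The cornea held the largest set. There 8 of 10 members detected met the criteria in the higher direction and none in the lower, with 33.0% of all miRNAs meeting them in that tissue. Of the 8, 5 were detected on both arrays. The median log2 ratio of the 7 members detected on both arrays was 1.43, and that of all 130 miRNAs detected on both was −0.05. miR-466f-3p measured 10.4 in normal, 17.7 in 0D and 60.2 in lens-induced, a log2 ratio of 2.53 ± 0.32 for lens-induced against normal. miR-466i-3p measured 20.3, 22.3 and 74.7 (1.88 ± 0.35), and miR-466i-5p as given above (1.46 ± 0.16). For miR-466h-3p (1.43 ± 0.21) and miR-466q (29.3, 29.5 and 66.7, 1.19 ± 0.29), normal and 0D lay within their errors and only the lens-induced array was high. miR-467f (0.94 ± 0.21) and miR-669p-3p (0.73 ± 0.17) were higher too but under the limit of 2-fold. miR-466g, miR-669c-3p and miR-669n were detected on the lens-induced array and not on the normal one. Of these, miR-466g, at 26.2 ± 2.7 (signal and scanner error), lay above the normal array's limit of 24.4 by less than its error. miR-669c-3p (22.7) and miR-669n (8.60) lay under that array's limits of 24.5 and 24.6. A higher level is thus not shown for these members. The UG-repeat miRNAs outside the family were also higher in that array: miR-574-5p at 25.03, 63.4 and 88.0 (1.81 ± 0.30), and miR-3082-5p at 15.7, 47.8 and 64.8 (2.05 ± 0.43).

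**Figure D5:**
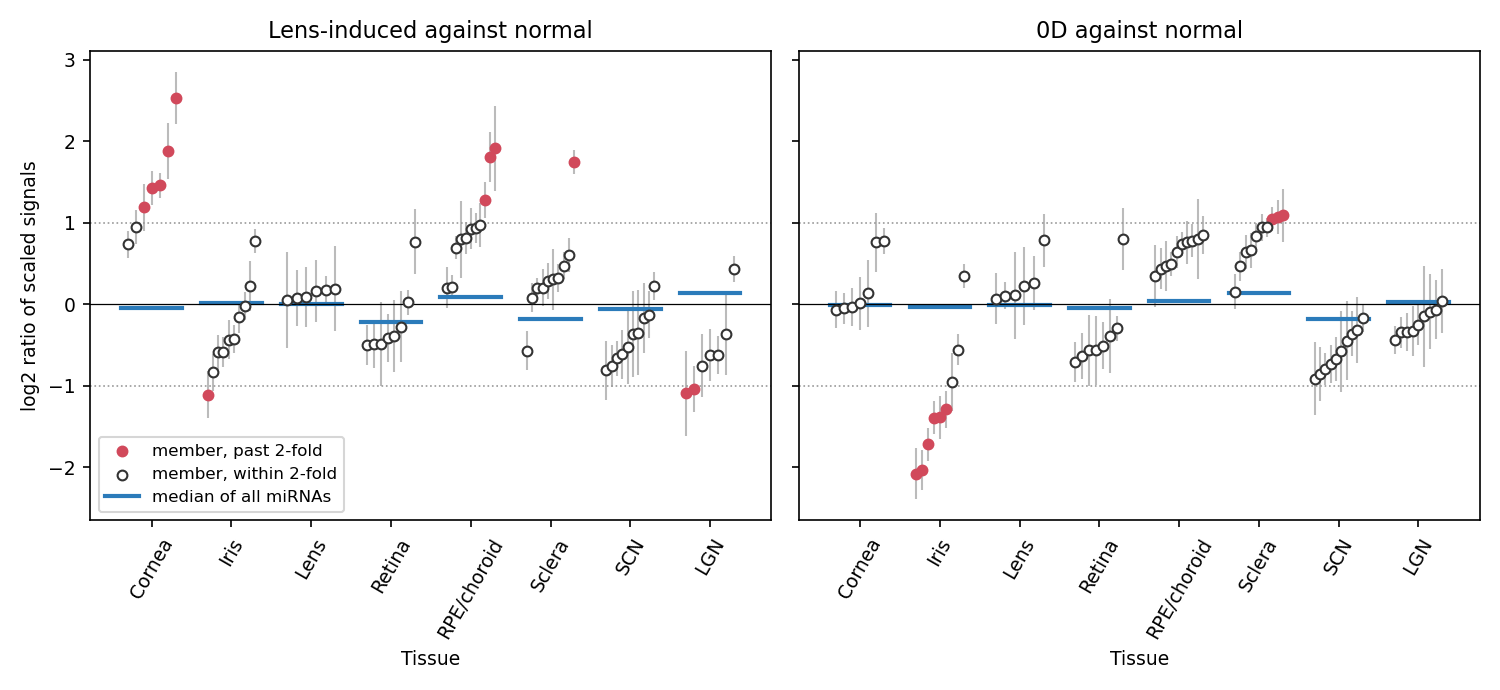
Log2 ratio of scaled signals within each tissue, lens-induced against normal (left) and 0D against normal (right), for members detected on both arrays, with the scanner's error; filled points are past 2-fold and blue bars are the median over all miRNAs detected on both arrays. Members lie above the blue bar in the lens-induced cornea and RPE/choroid. All but miR-466i-5p lie below it in the lens-induced SCN and LGN and in the 0D iris.

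In the RPE/choroid 5 of 13 members met the criteria in the higher direction and none in the lower (14.4% of all miRNAs met them), 3 of them detected on both arrays. miR-467a-3p measured 1.90 in normal and 7.16 in lens-induced (1.91 ± 0.53) and was not detected in 0D. miR-466g measured 4.75, 6.02 and 16.6 (1.81 ± 0.31), and miR-466f-3p 8.03, 10.8 and 19.4 (1.28 ± 0.22). miR-467c-3p, at 1.88, and miR-669f-3p, at 4.81, were detected on the lens-induced array only, under the normal array's limits. All 11 members detected on both arrays had a ratio above 1, with a median log2 of 0.93, where the median of all miRNAs was 0.09 and 68.8% of them were above 1.

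In the sclera 4 of 13 members met the criteria (28.7% of all miRNAs did), and 1 of the 4 was detected on both arrays. This was miR-466i-5p, which, at 166, 343 and 557, had a log2 ratio of 1.74 ± 0.15. Its 2 most alike miRNAs, a likeness read over arrays that include these, were higher too. miR-574-5p went from 69.7 over 122 to 169 (1.28 ± 0.16) and miR-3082-5p from 49.6 over 92.2 to 124 (1.32 ± 0.16). The other 9 members detected on both arrays lay between −0.57 and 0.60. miR-466m-5p was detected on the 0D and lens-induced arrays only (6.25 and 5.42), and miR-467a-3p (3.90) and miR-669f-3p (4.15) on the normal array only. All 3 lay under the limits of the arrays that did not detect them, so that neither a higher nor a lower level is shown.

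Fewer members met the criteria in the lower direction. In the iris 3 of 12 met the criteria in the lower direction (17.9% of all miRNAs met them), 1 of them detected on both arrays: miR-467a-3p went from 9.95 to 4.61 (−1.11 ± 0.29), while miR-467g and miR-669f-3p, at 1.54 and 4.39 on the normal array, were not detected on the lens-induced array, whose limits were above these signals. In the LGN 4 of 9 met them in the lower direction (16.5%), 2 of them detected on both arrays. There miR-467a-3p measured 4.06, 3.87 and 1.90 (−1.10 ± 0.52) and miR-467f 19.0, 15.0 and 9.25 (−1.04 ± 0.28), while miR-466i-3p and miR-669n were detected on the normal and 0D arrays only, under the lens-induced array's limits. No member met the criteria in lens (0 of 6, with 12.2% of all miRNAs), retina (0 of 8, with 3.90%) or SCN (0 of 10, with 12.4%), where the ratios lay between −0.81 and 0.77 on the log2 scale. The median log2 ratio of members detected on both arrays was −0.63 in LGN (1 of 7 above 0, median of all miRNAs 0.14). It was −0.45 in SCN (1 of 10, −0.06), −0.43 in iris (2 of 10, 0.01) and −0.40 in retina (2 of 8, −0.22). In lens it was 0.12 (6 of 6, 0.005) and in sclera 0.29 (9 of 10, −0.18).

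The number of probes counted moved these ratios. A member's signal is the sum of its probes above 3 errors, and for 3 of the 7 cornea members and 4 of the 11 RPE/choroid members more probes passed on the lens-induced than on the normal array. Over the probes that passed on both arrays, a choice made after seeing the data, the cornea ratio of miR-466f-3p went from 2.53 (1 probe in normal, 3 in lens-induced) to 1.76 and that of miR-466i-3p from 1.88 to 1.36. The cornea ratio of miR-466q fell short of 2-fold at 0.98, as did that of miR-466f-3p in RPE/choroid at 0.95. miR-467a-3p went from 1.91 to 0.38 in RPE/choroid, from −1.11 to −0.39 in iris and from −1.10 to −0.23 in LGN, and miR-467f in LGN from −1.04 to −0.53. The ratios of miR-466h-3p and miR-466i-5p, whose 2 probes passed on every array, were unchanged. In all, 6 of the 12 ratios with both arrays detected met the criteria over common probes and 6 fell short, while the other 12 have no common probe. The cornea median was 1.36.

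For 0D against normal 22 of 82 member ratios met the criteria, 10 higher and 12 lower, with 15.6% of all miRNA ratios. Both arrays detected the miRNA in 9 of the 22 (3 higher in sclera and 6 lower in iris), and 12 of the other 13 lay under the limit of the array that did not detect them. The difference between the 0D and the lens-induced changes was not tested. In the RPE/choroid the 10 members detected on both arrays all had a ratio above 1 here as well, with a median log2 of 0.69, and 58.3% of all miRNAs were above 1. The iris held 9 of the 12 lower ones, of 12 members (17.0% of all miRNAs met the criteria there), 6 of them detected on both arrays. Without scaling, miR-466h-3p (45.6 in normal, 24.1 in 0D), miR-467a-3p (14.4 and 7.66) and miR-467f (35.2 and 19.9) fell short of 2-fold. The other members of these 6, miR-466f-3p, miR-466i-3p and miR-669p-3p, stayed past it. miR-466f-3p measured 15.8 in normal, 3.85 in 0D and 10.5 in lens-induced iris, so that 0D against normal was −2.04 ± 0.24. miR-466i-3p measured 19.1, 4.51 and 14.1 (−2.08 ± 0.31), and miR-669p-3p 18.8, 5.69 and 13.9 (−1.72 ± 0.21). miR-466g went from 13.8 ± 1.2 (signal and scanner error) to undetected, the normal signal being 3.10 times the 0D array's limit. For these 4 the 0D array was the lowest of the 3, and for the first 3 the lens-induced array lay closer to normal. Over common probes the first 3 stood at −1.66, −1.46 and −1.42. miR-466i-5p did not follow them: it was at 0.35 ± 0.15 in the 0D iris, with miR-574-5p at −0.09 ± 0.16. In the sclera 6 of 13 members met the criteria (22.9% of all miRNAs did), and the 3 detected on both arrays were higher in 0D, miR-669c-3p by 1.09 ± 0.33, miR-466q by 1.07 ± 0.21 and miR-466i-5p by 1.04 ± 0.15.

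A lens change common to the 8 tissues was tested with limma with the tissue as a block. No member was called for lens-induced against normal, where 0% of the 197 miRNAs were called, nor for 0D against normal, where 1.02% were. At an unadjusted p under 0.05, 1 of the 9 members and 19 of all 197 miRNAs passed for lens-induced, and 0 and 36 for 0D. The 1 member was miR-466i-5p, at 0.63 ± 0.18 (log2, SE, limma adjusted p = 0.27), with a higher signal in lens-induced than in normal in 8 of 8 tissues as scaled and in 7 of 8 without scaling, where the lens went the other way. Its difference was over 2 scanner errors in 4 of the 8 tissues, and was 0.02 ± 0.15 in retina and 0.18 ± 0.17 in lens. For the other 8 members the estimate lay between −0.02 and 0.37, with an adjusted p of at least 0.707. The tissues of a lens group were on 1 slide, and the pooled ocular tissues of the normal and of the −30 D group came from the same 3 mice each, so that the tissues are not independent animals.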

How the data were processed

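Total RNA was labelled with Cy3 and hybridized to Agilent mouse miRNA 8x60K arrays (miRBase 21.0). The authors' deposited scanner files hold intensity values made with Feature Extraction 10.7.1.1, a background-subtracted total probe signal and its error per probe. A deposited table with 24 value columns, whose names do not map to the sample labels, was not used beyond its list of probe accessions. Here the probes above 3 errors were summed per miRNA, because the printed total signal differed by over 1% from this sum for 110 of 226 detected member values. Sums were scaled so that the 79 miRNAs seen on every one of the 24 arrays had an equal 75th percentile (log2 factors −1.01 to 1.65). The study's criteria were applied within tissues, with an undetected miRNA set to 0.1 here. limma 3.58.1 (R 4.3.3) fitted tissue and lens group to log2 values of the 197 miRNAs detected on at least 12 arrays, with Benjamini-Hochberg adjustment over all 197. The fit was also run on simulated data with independent errors and no undetected values, which cannot test the effect of the floor or of shared slides and animals. Sums and figures used Python 3.11.15, numpy 2.4.6 and pandas 2.3.3. Sequences are RefSeq's.

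Members, lists and named miRNAs were chosen with earlier results of these data known. Named were members detected on at least 12 arrays or meeting the criteria in 2 or more tissues, the member with the largest ratio in each direction per tissue, the miRNA most like each of the 3 brightest members, and repeat-bearing miRNAs detected on at least 12 arrays. Others were named after their values were seen. The number of arrays limits the precision.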

Additional observations from a re-analysis of the deposited data

Results flagged for a closer look

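miR-467a-3p met the criteria for lens-induced against normal in opposite directions in different tissues. Its log2 ratio was 1.91 in RPE/choroid, −1.11 in iris and −1.10 in LGN, each from 1 array per group. The difference between the tissues was not tested. The 2 arrays of each ratio counted different numbers of its 4 probes, 1 and 3 in RPE/choroid, 4 and 2 in iris and 2 and 1 in LGN (normal and lens-induced). Over the probes that passed on both arrays the ratios kept these signs, at 0.38, −0.39 and −0.23, and none was past 2-fold.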

How the results depend on the processing

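For lens-induced against normal, 24 member ratios met the criteria. The count was 25 without scaling, 22 under quantile normalization, 17 at a ratio of 3 and 24 with the printed total signal. Over common probes it was 18, made of 6 of the 12 ratios with both arrays detected and the 12 others, which have no common probe and could not change. It was 12 when the lowest signal an array detected replaced undetected values, which by construction leaves the 12 ratios with both arrays detected, 12 with dim miRNAs removed, and 2 after normexp correction with an offset of 50, namely miR-466i-5p in cornea and sclera. For 0D against normal the count of 22 became 17 without scaling, 20 under quantile normalization and 10 with that replacement, and 8 of its 9 ratios with both arrays detected stayed over common probes. The causes were not tested otherwise.

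With the printed total signal, 7 of the 12 ratios with both arrays detected changed sign: miR-466i-3p (−0.068) and miR-466q (−1.32) in cornea, miR-467a-3p in iris (4.41), RPE/choroid (−2.44) and LGN (0.17), miR-466g in RPE/choroid (−1.90) and miR-467f in LGN (1.77). The tissue calls numbered 43, and 51 without scaling, 35 under quantile normalization, 37 with undetected values missing and 31 over miRNAs detected on all arrays. The fit with undetected values missing leaves out miR-669n, which no lens array detected. Of the 43, 32 were called with the same sign without scaling and 31 under quantile normalization. With 1 lens group left out the calls numbered 28 to 40, and 41 with the tissue lens left out. Signs changed for miR-467f in lens (−0.95) and miR-669n in retina (0.054) without scaling, and for miR-466f-3p in sclera (−0.042) under quantile normalization. The common lens change had 0 member calls under every alternative run, with each tissue left out in turn. With a limit of 5 errors, detections summed over tissues fell from 85 to 63.

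Scaling to the 75th percentile over all miRNAs was not run, because that percentile lies among undetected values, and a slide block could not be fitted. The fits paired the arrays by tissue or by lens group, each as a block, and no replicate number is given in the labels. Signal over background limits the dim members: 45 had no probe above the limit on any array, and 14 of 24 values of miR-466f-3p and of miR-669n lay at the floor of the tissue fit.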
